A study of Mus musculus with 7 samples.

Results

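The genes described here are 9 neighbours on mouse chromosome 6, of 32286 features counted: 8 receptors best known from natural killer (NK) cells (Klrd1, Klrc1, Klrc2, Klrk1, Klre1, Klra1, Klrb1a and Klrb1c) and Clec2d, which encodes a ligand of the NKR-P1 receptors. They were taken by symbol, and each was followed by its level, by the share of cell barcodes holding it and by its co-detection with the others. Single-cell 3′ gene expression was measured in 7 libraries, 1 per sorted population, so no comparison has a replicate and no difference was tested. All intervals are 95% intervals that cover counting error only.

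The 5 WT libraries came from C57BL/6 mice aged 6 to 8 weeks, whose thymi were pooled before sorting. They hold CD4− CD8− double-negative (DN) thymocytes: DN3a precursors before selection, DN3b γδ− and DN4 γδ− cells of the αβ path, and DN3b γδ+ and DN4 γδ+ cells of the γδ path, and these names refer to WT throughout. The 2 Lat-KO libraries came from pooled thymi of C57BL/6 mice with the genotype Lat-/-TCRd-H2BEGFP, in which the adaptor LAT is missing from every cell and a green fluorescent reporter is driven from the TCRδ gene. They hold DN3 cells without surface γδ TCR (Lat-KO DN3 γδ−) or with an intermediate amount (Lat-KO DN3 γδint). The WT mice carried no reporter, and the age of the Lat-KO mice was not given. WT thymocytes were depleted of CD4+ and CD8+ cells before sorting, whereas Lat-KO cells were sorted from total thymocytes. The lack of LAT, the reporter and these differences cannot be told apart in any WT against Lat-KO comparison. Each library received 500 splenic B cells as a spike-in. The sorting gate kept NK1.1− cells, and NK1.1 is the product of Klrb1c, and the part of that gate in the Klrb1c level was not tested. The γδ+ gates also kept only CD24+ CD44low cells.

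NK receptors read the state of neighbouring cells through activating and inhibitory signals, and subsets of T cells, γδ T cells among them, use the same genes. CD94, the product of Klrd1, pairs with an NKG2 chain (Klrc1 for the inhibitory NKG2A, Klrc2 for the activating NKG2C) and binds the non-classical MHC class I molecule Qa-1, encoded by H2-T23. KLRE1 is a related receptor chain that pairs with other members of the complex, NKG2D (Klrk1) signals through DAP10 (Hcst) or DAP12 (Tyrobp), Ly49A (Klra1) is an inhibitory receptor for classical MHC class I, and the NKR-P1 receptors (Klrb1 genes) bind Clec2 proteins, Clec2d being the ligand of the inhibitory NKR-P1B.

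On mm10 the genes lie in the order Klrb1a, Klrb1c, Clec2d, Klre1, Klrd1, Klrk1, Klrc2, Klrc1 and Klra1, over 1777.6 kb from 128609227 to 130386874 (GENCODE annotation, chromosome 6). Klre1 (ENSMUSG00000050241, chr6:129577905-129585827, plus strand) ends 5.95 kb before Klrd1 (ENSMUSG00000030165, chr6:129591782-129598775, plus strand). Klrk1 (ENSMUSG00000030149, chr6:129610323-129623864), Klrc2 (ENSMUSG00000052736, chr6:129647496-129660689) and Klrc1 (ENSMUSG00000030167, chr6:129666015-129678973) follow on the minus strand. Farther out, also on the minus strand, are Klrb1a (ENSMUSG00000030361, chr6:128609227-128623533), Klrb1c (ENSMUSG00000030325, chr6:128778485-128789215) and Klra1 (ENSMUSG00000079853, chr6:130363917-130386874), with Clec2d (ENSMUSG00000030157, chr6:129180615-129186534) on the plus strand. Some of these genes are near copies of each other: 38.6% of the 50-base stretches of the Klrc1 transcripts occurred in another gene of the region, most often Klrc2, against 16.3% for Klrc2, 17.0% for Klrb1c and 9.92% for Klrb1a. The split of reads between Klrc1 and Klrc2, and among the Klrb1 genes, is therefore uncertain. No such stretch was shared for Klrd1, Klre1 or Klrk1, and 2.98% were for Klra1.

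Sequences upstream of the annotated starts are shown because the receptors were found mostly in 1 population and share letters there. RefSeq promoters of GRCm38.p6 were given for 8 of the 9 genes, Klrd1 being the exception. The 250 bases before the start were searched on both strands for the letters TGTGGT, which are read by RUNX proteins. They were also searched, again on both strands, for AGGTGT, which T-box proteins such as EOMES and T-bet read. The RUNX letters were in 7 of the 8 windows, Clec2d being the one without, against 14.2% of 27025 promoter windows of the same length. The windows of Klrb1a, Klrb1c, Klre1 and Klrc2 overlap the GENCODE body of their own gene, so they lie upstream of the RefSeq start only. The T-box letters were in 0 of the 8, against 11.99% of all windows. The windows of Klrb1a and Klrb1c resemble each other, the motifs can overlap by the letters TGT, and a match is a description of letters only. Shown 5′ to 3′ on the gene's own strand, with the RUNX letters in capitals (reverse-complemented where they lie on the other strand), are 3 receptor windows that overlap no annotated gene body and that of Clec2d, at chr6:130386875-130387124 (Klra1, minus strand), chr6:129623865-129624114 (Klrk1, minus), chr6:129678974-129679223 (Klrc1, minus) and chr6:129180365-129180614 (Clec2d, plus):
Klra1: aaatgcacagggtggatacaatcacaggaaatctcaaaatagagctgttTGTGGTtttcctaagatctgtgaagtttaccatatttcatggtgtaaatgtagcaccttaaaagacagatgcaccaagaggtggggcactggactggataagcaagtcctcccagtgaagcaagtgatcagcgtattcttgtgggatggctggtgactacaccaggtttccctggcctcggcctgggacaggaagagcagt
Klrk1: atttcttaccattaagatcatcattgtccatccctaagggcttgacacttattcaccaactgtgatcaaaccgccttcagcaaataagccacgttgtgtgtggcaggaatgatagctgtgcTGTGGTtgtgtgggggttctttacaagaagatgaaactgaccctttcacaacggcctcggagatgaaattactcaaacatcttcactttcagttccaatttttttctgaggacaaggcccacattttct
Klrc1: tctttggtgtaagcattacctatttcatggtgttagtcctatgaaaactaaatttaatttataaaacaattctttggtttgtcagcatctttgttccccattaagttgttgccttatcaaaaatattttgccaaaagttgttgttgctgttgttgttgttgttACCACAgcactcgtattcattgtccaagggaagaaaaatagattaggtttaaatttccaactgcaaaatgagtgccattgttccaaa
Clec2d: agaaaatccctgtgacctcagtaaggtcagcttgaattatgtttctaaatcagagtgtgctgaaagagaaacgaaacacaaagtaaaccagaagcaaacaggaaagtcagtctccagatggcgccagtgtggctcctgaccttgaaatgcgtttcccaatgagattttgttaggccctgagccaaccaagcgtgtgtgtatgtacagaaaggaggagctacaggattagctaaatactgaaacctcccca

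The libraries held 90016 barcodes, of which 71081 (79.0%) had at least 200 genes, at most 15% mitochondrial UMIs and at most 1 UMI of the B cell genes Cd79a, Cd79b and Ms4a1 together; these are called thymocyte barcodes. A unique molecular identifier (UMI) marks 1 captured transcript. Thymocyte barcodes numbered 5274 to 18515 per library with median depths of 5737.5 to 18506 UMIs, and 97.4% to 99.98% of them held a UMI of a CD3 gene. The B cell limit removed between 4.96% and 19.9% of the barcodes of good quality. Because depth differed, shares of barcodes were taken after thinning each to 4000 UMIs, which left out 4.55% to 20.3% as too shallow, the most in DN4 γδ+. Any pair of libraries had 18 to 93 barcode sequences in common. Levels are given as CPM, the UMIs of a gene relative to all thymocyte UMIs of its library, not scaled by transcript length, so levels are compared between libraries and not between genes.

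The 8 receptors were found mainly in DN4 γδ+ thymocytes. Their summed level there was 40.4 CPM (39.0 to 42.0), from 2824 UMIs. It was 0.666 CPM (162 UMIs) in DN4 γδ−, 0.587 CPM (115 UMIs) in DN3b γδ+, 0.0744 CPM (4 UMIs) in DN3a and 0.0472 CPM (16 UMIs) in DN3b γδ−. The Lat-KO libraries held a single receptor UMI, in the γδint cells. At 4000 UMIs a barcode, 391 of 6934 DN4 γδ+ barcodes, 5.64% (5.11 to 6.21), held a UMI of at least 1 receptor. The share was 0.271% in DN4 γδ− (32 of 11815) and 0.240% in DN3b γδ+ (26 of 10851). DN3a and DN3b γδ− each had 2 such barcodes. Without thinning, 691 of 8703 DN4 γδ+ barcodes (7.94%) held a receptor UMI. The spike-in B cells, which should lack these genes and show what free RNA adds, held 0 to 4 receptor UMIs per library. In the DN4 γδ+ library those 4 UMIs were 8.43 CPM (2.30 to 21.6), below the thymocyte level. In 3 other libraries the B cell level was the higher one: 6.52 CPM (1.78 to 16.7) in DN3b γδ− from 4 UMIs, and, from 1 UMI each, 1.755 CPM (0.0444 to 9.78) for Lat-KO DN3 γδ− B cells and 3.82 CPM (0.0966 to 21.3) for those of Lat-KO DN3 γδint. The receptor UMIs of DN3b γδ− thymocytes were thus at or below this background, and those of DN3a, DN4 γδ− and DN3b γδ+ lay under the upper limits that 0 B cell UMIs allowed there, 10.7 to 18.4 CPM. At 4000 UMIs, 1 of 43 B cell barcodes of that library held one, of Klra1, a share of 2.33% whose upper limit of 12.3% lies above the 5.64% of the thymocytes, so the number of B cells limits this check, and the median depth before thinning was 3649 UMIs in B cells and 6418 in thymocytes.

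**Figure D1:**
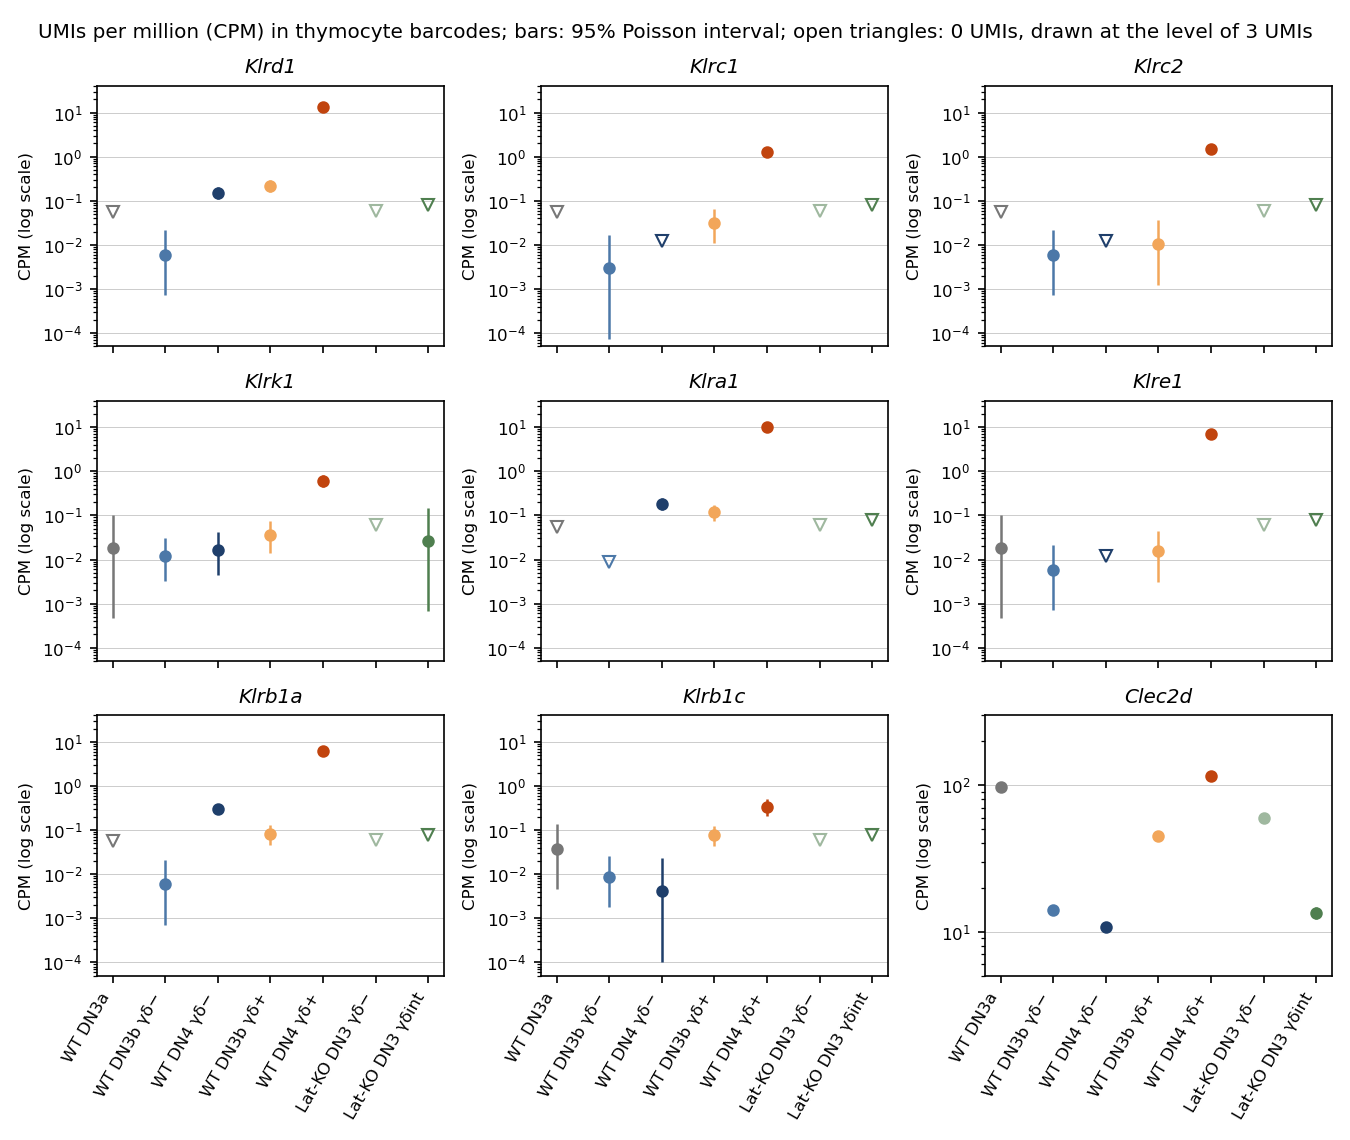
Level of each receptor and of Clec2d in the 7 libraries, in CPM on a log scale, with the 95% Poisson interval and with open markers where no UMI was counted. For the receptors the WT DN4 γδ+ point is the highest in each panel, whereas Clec2d was near 100 CPM in both WT DN3a and WT DN4 γδ+.

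CD94 and its partners had their highest counts in DN4 γδ+ cells. Klrd1 had 933 UMIs in DN4 γδ+ and 43 UMIs in DN3b γδ+, whereas it had 37 UMIs in DN4 γδ−, 2 UMIs in DN3b γδ−, and 0 in DN3a and both Lat-KO libraries. Its level was 13.4 CPM (12.5 to 14.25) in DN4 γδ+ and 0.220 CPM in DN3b γδ+, a log2 ratio of 5.93 (5.49 to 6.40). At 4000 UMIs it was in 188 DN4 γδ+ barcodes, 2.71% (2.34 to 3.12), and in 0 of the 43 B cell barcodes. Without thinning the share was 3.57%. The 37 UMIs of DN4 γδ− came from 7 barcodes, 1 of which held 10 of them, whereas the 43 of DN3b γδ+ were spread over 35 barcodes.

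Klrc1, for the inhibitory partner NKG2A, had 89 UMIs in DN4 γδ+, 6 in DN3b γδ+, 1 in DN3b γδ− and 0 in the other 4 libraries. Klrc2, for the activating partner NKG2C, had 104 UMIs in DN4 γδ+, 2 in DN3b γδ+, 2 in DN3b γδ− and 0 elsewhere. Both were thus near the limit of detection outside DN4 γδ+. Their levels there were 1.27 CPM (1.02 to 1.57) and 1.49 CPM (1.22 to 1.81). The log2 ratio of DN4 γδ+ to DN3b γδ+ was 5.38 for Klrc1 and 7.19 (5.30 to 10.25) for Klrc2, the second resting on 2 UMIs in DN3b γδ+.

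Klre1, for a receptor chain encoded beside CD94, had the most confined counts: 503 UMIs in DN4 γδ+, 98.8% of all its UMIs. The other libraries held 1 (DN3a), 2 (DN3b γδ−), 3 (DN3b γδ+) and 0 UMIs (DN4 γδ− and both Lat-KO libraries). In DN4 γδ+ its level was 7.20 CPM (6.59 to 7.86) and it was in 87 barcodes at 4000 UMIs, 1.26%, and in 1.93% without thinning. For Klrk1, which encodes NKG2D, counts were low everywhere, with 42 UMIs in DN4 γδ+ (0.601 CPM, 0.434 to 0.813), 7 in DN3b γδ+, 4 in each of the WT γδ− libraries, 1 in DN3a and 1 in Lat-KO DN3 γδint.

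Klra1, for the inhibitory receptor Ly49A, had 693 UMIs in DN4 γδ+, 45 in DN4 γδ−, 23 UMIs in DN3b γδ+ and none in the other 4 libraries. Its counts were concentrated in few barcodes: 1 DN4 γδ+ barcode held 47 UMIs, and the top 10 barcodes held 39.8% of the total, against 22.2% for Klrd1. It was in 74 DN4 γδ+ barcodes at 4000 UMIs (1.07%) and in 1 of the 43 B cell barcodes (2.33%, 0.0589 to 12.3). The B cells are too few to rank the 2 shares. Before thinning Klra1 had 5.37 UMIs per positive barcode, compared with 3 for Klrd1. In DN3b γδ+ 12 of the 23 UMIs came from 1 barcode.

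Klrb1a, for NKR-P1A, had 437 UMIs in DN4 γδ+ (6.26 CPM, 5.69 to 6.87), 75 in DN4 γδ−, 16 in DN3b γδ+, 2 in DN3b γδ− and 0 in DN3a and both Lat-KO libraries. Of the receptors it had the largest count in DN4 γδ−, spread over 42 barcodes. In DN4 γδ+ it was in 109 barcodes at 4000 UMIs (1.57%). Klrb1c, whose product NK1.1 was used to exclude cells from the sort, had 23 UMIs in DN4 γδ+, 15 in DN3b γδ+, 3 in DN3b γδ−, 2 in DN3a, 1 in DN4 γδ− and 0 in the Lat-KO libraries. Only 52.3% of its UMIs were in DN4 γδ+, the lowest share of any receptor.

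From DN3b γδ+ to DN4 γδ+, all 9 genes had at least 10 UMIs over both libraries and all 9 were at least 2-fold higher, where 22.2% of 15721 genes with that many UMIs were. Klrc1, Klrc2, Klrk1 and Klre1 reached that minimum only through DN4 γδ+, the library in which they were high, so nothing is read from the count of 9. The median log2 ratio of all genes was 0.26. TMM scaling, which assumes that most genes do not differ, shifted the ratios of this comparison by -0.30 on the log2 scale, and the 9 remained over 2-fold. The ratios were smaller without the barcodes that held RNA of the NK markers Ncr1, Tyrobp or Fcer1g. Barcodes with only Klrb1c or Eomes were kept. The log2 ratio was then 5.01 for Klrd1, 4.90 for Klra1 and 4.97 for Klrb1a. With all barcodes it was 6.40 for Klra1 and 6.26 for Klrb1a. The smallest ratio of the receptors was that of Klrb1c, 2.10 (1.10 to 3.15).

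Between DN3b γδ+ and DN3b γδ− the receptors were compared at lower levels than in DN4 γδ+. Of the 9 genes 6 had enough UMIs and all 6 were at least 2-fold higher in DN3b γδ+, where 12.0% of 16306 genes were and 7.82% were 2-fold lower. Klrd1, Klra1, Klrb1a and Klrb1c reached 10 UMIs only through DN3b γδ+, here and in the comparisons of this library with DN3a and with Lat-KO DN3 γδint, so these counts are no support for a direction. The log2 ratio was 5.22 (3.28 to 8.31) for Klrd1, 3.79 for Klrb1a and 3.11 for Klrb1c, and Klra1, with 0 UMIs in DN3b γδ−, was at least 13.3-fold higher. For Klrk1 the interval of the ratio included no difference (1.60, -0.38 to 3.82). Of 5 genes with enough UMIs in the comparison of DN3b γδ+ with DN3a, 3 were at least 2-fold higher, where 13.3% of 15554 genes were. They were Klrd1 (3.93-fold against the floor of 3 UMIs, with a log2 interval of 0.33 to 4.31), Klra1 and Klrb1c. For Klra1, 2.10-fold against the floor, the interval of the log2 ratio was -0.65 to 3.45. For Klrb1c, with a log2 ratio of 1.04, it was -1.06 to 4.21, so both included no difference.

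The DN4 γδ− library also held receptor RNA, in barcodes that differed from the rest of it in other genes. It had Klrd1, Klra1 and Klrb1a at levels above DN3b γδ−. The log2 ratio was 4.69 (2.73 to 7.78) for Klrd1 and 5.71 for Klrb1a. Klra1, with 0 UMIs in DN3b γδ−, was 20.9-fold higher against the floor of 3 UMIs, with a log2 interval of 2.74 to 6.71. All 3 were nevertheless lower than in DN4 γδ+, by a log2 ratio of 6.46, 4.34 and 5.75 in favour of the γδ cells, respectively for Klrd1, Klrb1a and Klra1. Klre1, Klrc1 and Klrc2 had 0 UMIs in DN4 γδ−. Against the floor of 3 UMIs they were 584.5-fold, 103.4-fold and 120.8-fold higher in DN4 γδ+. The intervals of these log2 ratios were 7.636 to 11.47, 5.098 to 8.997 and 5.33 to 9.218.

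The 32 DN4 γδ− barcodes with a receptor UMI at 4000 UMIs differed from the rest of their library in other genes too. Trac, the TCRα constant gene, was in 20 of them (62.5%), against 5.88% of the barcodes without a receptor, and Trdc, the TCRδ constant gene, was in 7 (21.9% against 49.7%). Both TCR genes were chosen after their values were seen. Fcer1g, the FcRγ adaptor, was in 14 (43.75% against 0.33%), and Il2rb, the shared β chain of the IL-2 and IL-15 receptors, in 15 (46.9% against 0.34%). Cd160 was in 14 (43.75% against 0.80%), whereas Gzma, for granzyme A, was in 9 (28.1% against 86.2%) and the proliferation marker Mki67 in 28.1% against 57.3%. CD3δ RNA (Cd3d) was in 31 of the 32. Of the 24 barcodes with Klrb1a, 25% held Thy1 and 62.5% Lck, against 82.35% and 72.8% of those without Klrb1a. The other T cell genes of the marker list, Cd3d, Cd3e, Cd3g and Cd247, were not less frequent in the 24. Of the NK markers Tyrobp was in 8.33% against 0.178%, and Ncr1, Klrb1c and Eomes in none. Before thinning, the 56 barcodes of this library with a receptor UMI were shallower than the rest, with a median of 9527 against 18529.5 UMIs.

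In the Lat-KO libraries the receptors were at or under the limit of detection. None of the 6125 Lat-KO DN3 γδ− barcodes at 4000 UMIs held a receptor UMI, with an upper limit of 0.0602%, nor did any of 4537 Lat-KO DN3 γδint barcodes, with an upper limit of 0.0813%. Of the 5 genes with enough UMIs, Klrd1 and Clec2d were at least 2-fold lower in Lat-KO DN3 γδint than in DN3b γδ+, where 11.0% of 15410 genes were. The spike-in B cells of the same pair were also lower in Clec2d, by a log2 ratio of -1.25 (-2.46 to -0.12), where thymocytes gave -1.76, and the part of the library was not tested. Against the floor of 3 UMIs Klrd1 was 2.77-fold lower, but the counting interval of that log2 ratio, -3.80 to 0.17, includes no difference. For the receptors with 23 UMIs or fewer in DN3b γδ+ a difference of 2-fold was not detectable at this depth. The log2 ratio of Klra1, against the floor, was -0.57 (-2.95 to 1.16), and under TMM scaling -1.31, past 2-fold.

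Clec2d followed another order. Its level was 116 CPM (113.4 to 118.4) in DN4 γδ+, 97.3 CPM in DN3a, 59.8 CPM in Lat-KO DN3 γδ−, 45.3 CPM in DN3b γδ+, 14.1 CPM in DN3b γδ−, 13.4 CPM in Lat-KO DN3 γδint and 10.75 CPM in DN4 γδ−. At 4000 UMIs it was in 35.4% of DN4 γδ+, 30.25% of DN3a, 21.4% of Lat-KO DN3 γδ−, 17.6% of DN3b γδ+, 5.90% of DN3b γδ−, 5.60% of Lat-KO DN3 γδint and 4.84% of DN4 γδ− barcodes. Level and share thus gave one order, and between DN3b γδ− and Lat-KO DN3 γδint the intervals overlapped on both measures. Without thinning the shares were 47.7%, 46.25%, 33.9%, 45.9%, 20.4%, 8.59% and 16.1% in that same order of libraries.

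**Figure D2:**
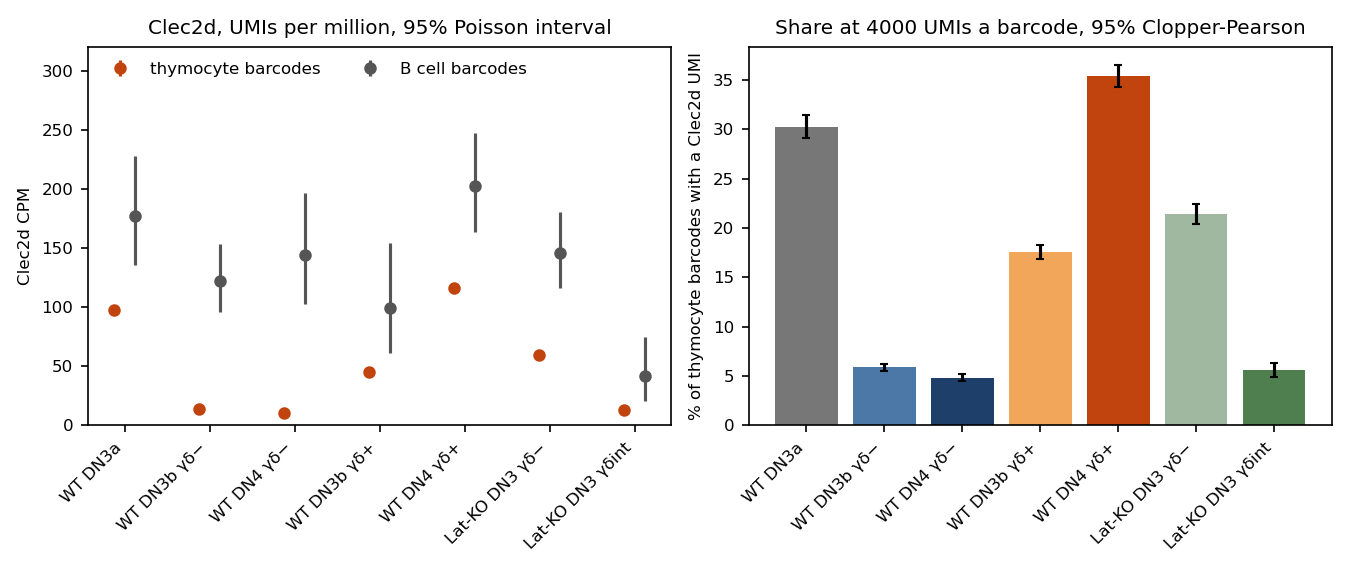
Clec2d in thymocyte and spike-in B cell barcodes of each library, in CPM with 95% Poisson intervals (left), and the share of thymocyte barcodes with a Clec2d UMI at 4000 UMIs with 95% Clopper-Pearson intervals (right, bars from 0). The B cell level was above the thymocyte level in every library and moved between libraries too, from 42.0 to 202 CPM.

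B cells express Clec2d, and the same kind of cell was added to every tube. Their level can also hold free RNA of the thymocytes of the same tube, a share that was not separated here. It was highest beside DN4 γδ+ (202 CPM) and DN3a (177 CPM), then came Lat-KO DN3 γδ− (146 CPM), DN4 γδ− (144 CPM), DN3b γδ− (122 CPM), DN3b γδ+ (99.7 CPM) and Lat-KO DN3 γδint (42.0 CPM), each from 11 to 96 UMIs. From DN3b γδ+ to DN4 γδ+ Clec2d was higher in thymocytes by 1.36 on the log2 scale (1.31 to 1.40) and in B cells by 1.02 (0.32 to 1.80). From Lat-KO DN3 γδ− to Lat-KO DN3 γδint the log2 ratio was -2.16 (-2.30 to -2.02) in thymocytes and -1.80 (-2.85 to -0.88) in B cells. For both contrasts the intervals of thymocytes and B cells overlapped. The part of the library in these 2 differences was not tested. The paper states that ribosomal mRNA made up another share of the RNA in the spike-in B cells of Lat-KO DN3 γδint. Its part in the Clec2d ratios was not tested.

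Clec2d was lower in DN3b γδ− than in DN3a, in thymocytes by a log2 ratio of -2.79 (-2.85 to -2.73) and in B cells by -0.54 (-1.04 to -0.02). DN3b γδ+ was above DN3b γδ− by 1.69 (1.63 to 1.74) in thymocytes, and the ratio in B cells was -0.29 (-1.09 to 0.43). The part of the library in these differences was not tested either. Clec2d was the one gene of the 9 with enough UMIs between DN3b γδ− and DN3a, a comparison in which 27.1% of 15873 genes were at least 2-fold lower and 10.1% higher. For DN3b γδ+ against DN3a, where 25.4% of genes were at least 2-fold lower, the log2 ratio was -1.10 (-1.15 to -1.05) in thymocytes and -0.83 (-1.64 to -0.08) in B cells, and under TMM scaling the first was -0.78, no longer 2-fold. Lat-KO DN3 γδ− was below DN3a by a log2 ratio of -0.70, under 2-fold, where 5.44% of 14479 genes were at least 2-fold lower and 6.62% higher. Between the Lat-KO populations 6.02% of 14171 genes were at least 2-fold lower in the γδint cells and 6.32% higher. TMM moved the ratios of the 7 comparisons by -0.74 to 0.36 on the log2 scale.

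**Figure D3:**
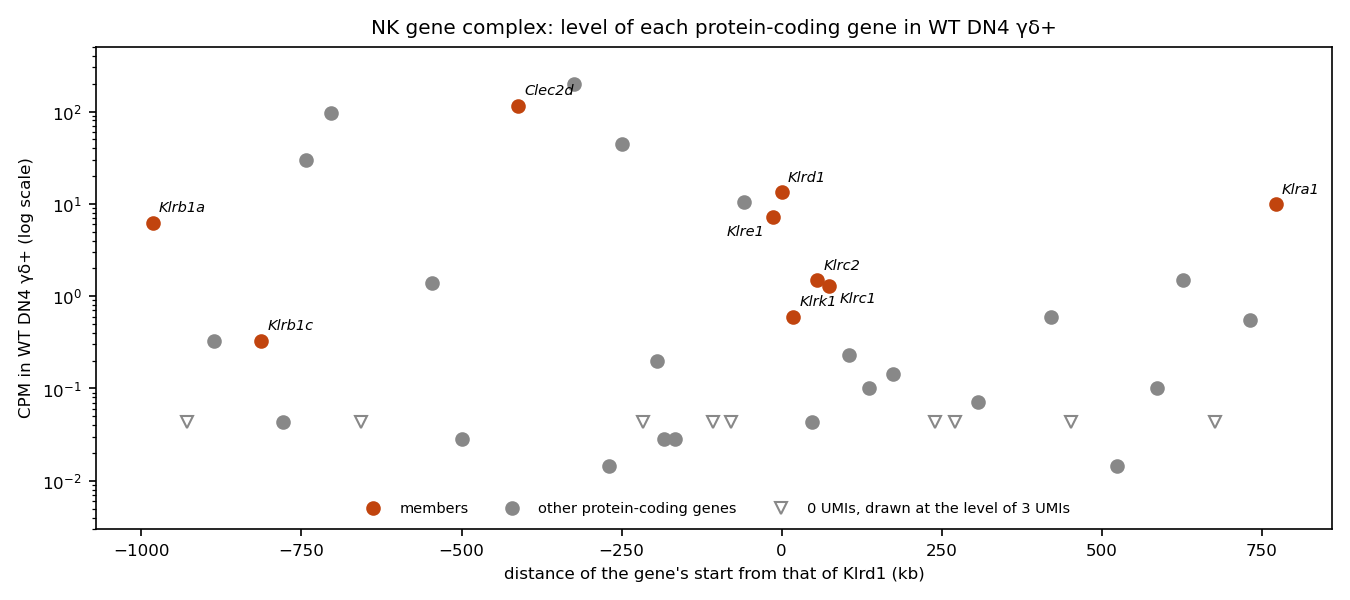
Level of each protein-coding gene of the chromosome 6 region in WT DN4 γδ+ thymocytes (CPM, log scale) against the distance of its start from that of Klrd1 in kb. Among 41 genes the 9 described here (orange) stand beside 32 others (grey), of which 5 were at 10 CPM or more and many at 0 (open triangles).

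The same region holds 32 other protein-coding genes, 26 of which had a UMI in some library. In DN4 γδ+ 7 of the 32 reached 1 CPM and 5 reached 10 CPM. Of a list of 18 further receptor genes of the complex 17 were in the files, and none reached 10 CPM in any library. Their summed level was 4.98 CPM in DN4 γδ+ and between 0.370 and 1.35 CPM in the other 6 libraries. From DN3b γδ+ to DN4 γδ+ the 6 of them with enough UMIs were all at least 2-fold higher, where 22.2% of all genes were, but 4 of the 6 (Klra6, Klra7, Klri1 and Klrb1) reached the minimum only through DN4 γδ+, so nothing is read from this count. In DN4 γδ+ the largest counts among them were those of Klra7 (Ly49G) with 104 UMIs and Klrb1f with 98, both named after their values were seen. The other libraries together held 9 UMIs of Klra7 and 436 of Klrb1f.

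Other ligands and partners of the region moved otherwise. Clec2i, a ligand of other NKR-P1 receptors, was at 97.2 CPM in DN4 γδ+ and 102 CPM in DN3a, as Clec2d was, but at 133 CPM in Lat-KO DN3 γδint, where Clec2d was low. Cd69, an activation marker encoded in the same region, was at 199 CPM in DN4 γδ+, 145 in DN3b γδ+, 78.7 in DN3a and 25.1 in DN3b γδ−. Neither Clec2i (log2 ratio 0.86) nor Cd69 (0.46) was 2-fold higher in DN4 γδ+ than in DN3b γδ+.

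Among 11 adaptor and signalling genes 6 were at least 2-fold higher in DN4 γδ+ than in DN3b γδ+ and none 2-fold lower, with a median log2 ratio of 1.10, beside 22.2% of all genes higher. Fcer1g went from 1.68 to 27.2 CPM (log2 ratio 4.02), Tyrobp (DAP12) from 0.950 to 4.31 CPM (2.18) and Hcst (DAP10) from 49.97 to 151 CPM (1.59). Hcst was at 26.4 to 37.0 CPM in DN3a, both WT γδ− populations and Lat-KO DN3 γδ−, and it was lowest in Lat-KO DN3 γδint at 7.27 CPM. Of 5 ligand genes with enough UMIs 2 were at least 2-fold higher. They were H2-T23, for the CD94/NKG2 ligand Qa-1 (31.9 to 129 CPM, log2 ratio 2.01), and B2m (1.01), the light chain of MHC class I. The list counts given here are without TMM scaling, whose shift of -0.30 puts B2m under 2-fold. In the same comparison 12 of 16 genes of a list of cytotoxic and IFN-γ-linked genes were at least 2-fold higher (median log2 ratio 1.82), as were 8 of 11 of a list of IL-17-linked genes (2.15), and none of either list was 2-fold lower. Over all genes of that comparison 22.2% were at least 2-fold higher.

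In DN4 γδ+ a receptor was usually more frequent in barcodes that held another receptor than in those that did not. Of the 391 barcodes with a receptor UMI at 4000 UMIs, 293 held 1 receptor, 70 held 2 and 28 held 3 or 4, so 25.1% (20.8 to 29.7) held more than 1. Of 21 pairs of receptors with at least 10 barcodes for the rarer one, 15 were met at least once, and the median ratio of the share with the second receptor among barcodes with against without the first was 8.56. Without thinning 27 of 28 pairs were met.

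Klrd1 was met with each of the other receptors counted in at least 10 barcodes. Klre1 was in 32 of the 188 barcodes with Klrd1 (17.0%), against 0.815% of those without. Klrc2 was in 12 (6.38% against 0.252%), and Klrc1 in 2 (1.06% against 0.222%). Without thinning Klrc1 and Klrc2 were each in 20 of 311 barcodes with Klrd1 (6.43%), against 0.381% and 0.441% of those without, so the 2 partners are not ranked. Klrk1 was in 5 (2.66% against 0.0741%), which was 5 of the 10 barcodes with Klrk1. Of 17 barcodes with Klrc1, 8 held Klrc2 (47.1% against 0.304%), a pair whose near-identical sequences could share reads, and 8 held Klre1. Of 29 barcodes with Klrc2, 11 held Klre1 (37.9%) and 41.4% held Klrd1.

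Klra1 was met with Klrb1a and with Klrd1. Klra1 was in 15 of the 188 barcodes with Klrd1 (7.98% against 0.875%), and 20.3% of Klra1 barcodes held Klrd1. Klrb1a was in 27 of 74 barcodes with Klra1 (36.5%, 25.6 to 48.5), against 1.195% of those without, while Klre1 was in 3 (4.05% against 1.22%). Klrb1a was in 5 of 87 barcodes with Klre1 (5.75% against 1.52%) and in 21 of 188 with Klrd1 (11.2% against 1.30%). At 4000 UMIs no barcode held Klrc1 with Klrk1, Klra1 or Klrb1a, Klrc2 with Klrb1a, or Klrk1 with Klre1 or Klrb1a. Without thinning each of these pairs was met, in 1 to 7 barcodes, the most for Klrc1 with Klrk1 (13.5% against 0.220%). The meeting of Klra1 and Klrb1a was also seen in DN4 γδ−, where without thinning 6 of 12 barcodes with Klra1 (50%) held Klrb1a. It was not seen in DN3b γδ+, where without thinning 0 of 12 Klra1 barcodes held Klrb1a (0 to 26.5%). Of 6 receptor pairs counted in that library 1 was met, Klrd1 with Klrb1a, in 3 barcodes. When barcodes with a UMI of Ncr1, Tyrobp or Fcer1g were left out, the share of Klra1 barcodes with Klrb1a in DN4 γδ+ was 5.56%. Few Klra1 barcodes were left, so this share is uncertain.

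**Figure D4:**
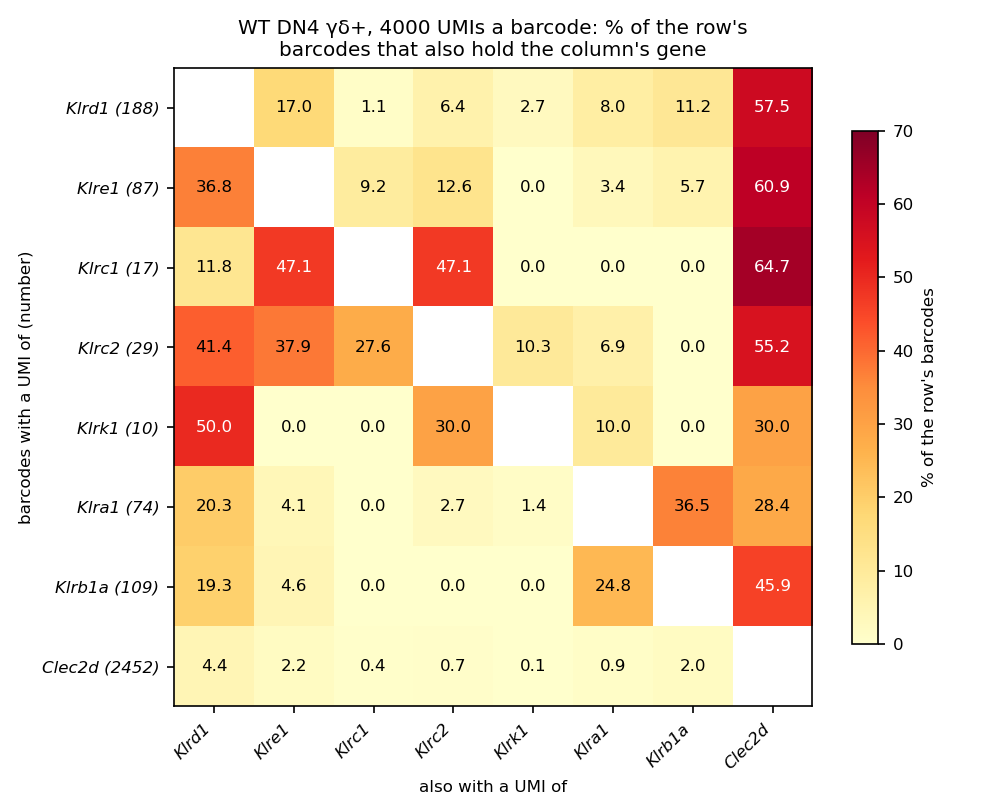
Co-detection in WT DN4 γδ+ at 4000 UMIs a barcode: each cell gives the percentage of barcodes with the row gene that also held the column gene. Klrc1 and Klrc2 barcodes often held Klre1 (47.1% and 37.9%), and 36.5% of Klra1 barcodes held Klrb1a. The share of Klrd1 barcodes with Klrc1, 1.06% here, was 6.43% without thinning.

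Clec2d, the ligand, was more frequent in barcodes with Klrd1, Klre1 or Klrb1a than in those without, and its order among the receptors depended on thinning. It was in 57.45% of barcodes with Klrd1 (34.75% of those without), in 60.9% of those with Klre1 and in 45.9% (36.3 to 55.7) of those with Klrb1a, against 35.2% without Klrb1a. In barcodes with Klra1 it was in 28.4% (18.5 to 40.05), against 35.4% of those without, an interval that includes the share without. Without thinning the order turned, with Clec2d in 79 of 129 barcodes with Klra1 (61.2%, 52.3 to 69.7) against 47.5% of those without, so no direction is given for this pair. Also without thinning, Clec2d was in 73.6% of barcodes with Klrd1, 73.2% with Klre1 and 73.0% with Klrb1a, so these 3 are not ranked.

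Some genes of the IFN-γ-producing, cytotoxic side of γδ T cell differentiation were met more often in DN4 γδ+ barcodes with a receptor, and others of the same list of 16 were not. Il2rb was in 64.4% of barcodes with Klrd1, 77.0% with Klre1, 71.6% with Klra1 and 72.5% with Klrb1a, against 16.4% of those with no receptor. Cd160, for a receptor of cytotoxic lymphocytes, was in 51.1%, 58.6%, 50% and 50.5% respectively, against 14.2%, and Id2, a transcriptional regulator of innate-like lymphocytes, in 45.7%, 49.4%, 58.1% and 56.9%, against 16.1%. Ikzf2, for Helios, was in 79.3% to 91.7% against 81.0%, and the kinase gene Txk was in more barcodes with Klrd1 (57.45%) and Klre1 (82.8%) but fewer with Klra1 (37.8%) and Klrb1a (33.03%) than with no receptor (41.9%). Nkg7, for a cytotoxic granule protein, was in 63.5% with Klra1 and 86.2% with Klrd1, against 61.6%. Of the IL-17 list Sox13, a transcription factor of IL-17-producing γδ T cells, was in 9.04%, 5.75%, 5.405% and 9.17%, against 47.4% of barcodes with no receptor. Maf was in 8.11% to 15.4% against 46.7%, and the kinase gene Blk in 1.35% to 7.45% against 31.7%. Gzma, of the cytotoxic list, was also met less often, in 34.9% to 42.5% against 72.3%, as was the gut-homing receptor gene Ccr9, in 16.2% to 32.98% against 82.4%.

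Other genes separated the receptors from each other. Eomes, a T-box factor of cytotoxic lymphocytes, was in 44 of 188 barcodes with Klrd1 (23.4%) and in 47 of 87 with Klre1 (54.0%, 43.0 to 64.8), but in 0 of 74 with Klra1 and 3 of 109 with Klrb1a (2.75%). The chemokine gene Ccl5 was in 54.8% with Klrd1 and 74.7% with Klre1, and in 6.76% with Klra1 and 19.3% with Klrb1a. Fcer1g had the opposite order, with 25.0% for Klrd1 and 9.20% for Klre1 but 71.6% for Klra1 and 56.9% for Klrb1a. Zbtb16, for PLZF, a factor of innate-like T cells, was in 27.0% of barcodes with Klra1 and 17.4% with Klrb1a, and in 3.19% with Klrd1 and 3.45% with Klre1, against 1.99% of barcodes with no receptor.

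**Figure D5:**
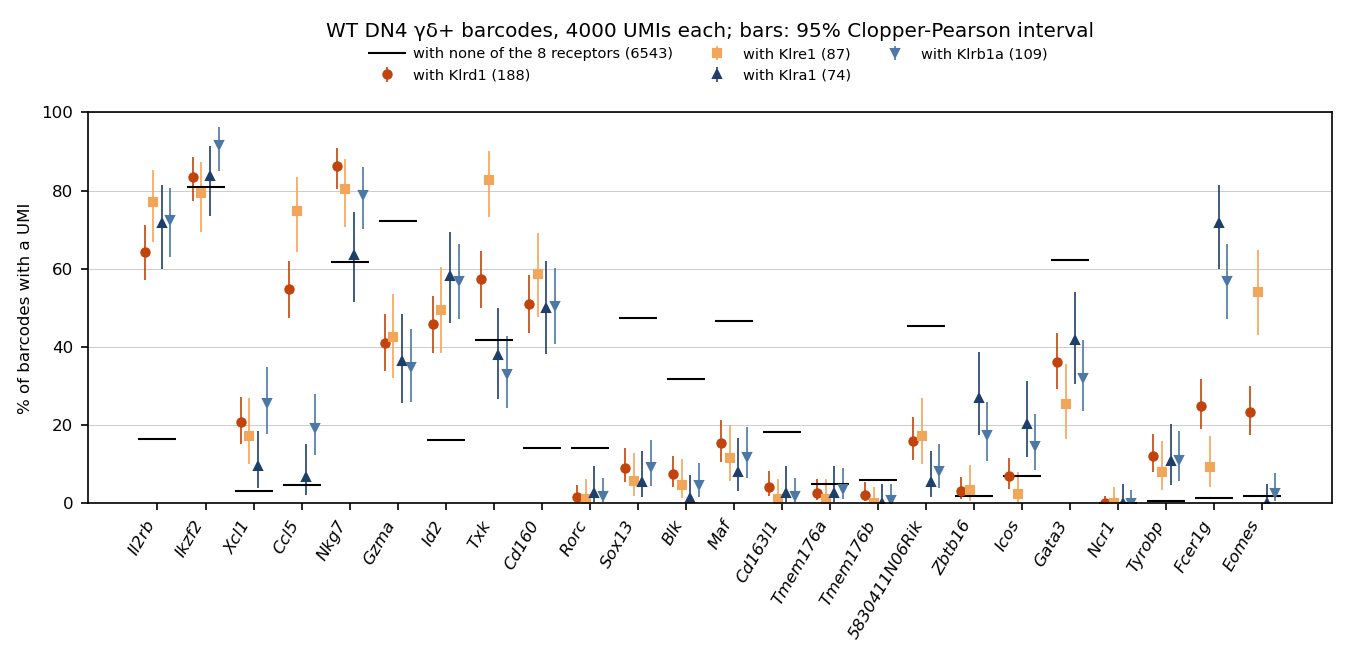
Percentage of WT DN4 γδ+ barcodes at 4000 UMIs with a UMI of each named gene, among barcodes with Klrd1, Klre1, Klra1 or Klrb1a (points, 95% Clopper-Pearson intervals) and with none of the 8 receptors (black bars). Eomes and Ccl5 were highest beside Klre1 and Klrd1, Fcer1g and Zbtb16 beside Klra1 and Klrb1a, and Sox13, Maf and Blk were lower beside all 4.

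Nearly all DN4 γδ+ receptor barcodes held RNA of CD3 and of the TCRδ chain, while the other T cell genes of the marker list went in different directions. Of the 691 DN4 γδ+ barcodes with a receptor before thinning, 684 (99.0%) held a CD3 UMI, 98.3% held Trdc and 55.7% Trac, against 96.4% and 32% for the 2 TCR genes in barcodes without. The receptor barcodes were deeper, with a median of 7575 against 6328 UMIs. At 4000 UMIs Trac was in 44.7% with Klrd1 and 63.2% with Klre1. It was in 31.1% (20.8 to 42.9) with Klra1 and 28.4% (20.2 to 37.9) with Klrb1a. The shares without each of these receptors were 23.85% to 24.35%. At 4000 UMIs Thy1, for a surface marker of T cells, was in 35.1% of barcodes with Klrd1, 28.7% with Klre1, 13.5% with Klra1 and 11.9% with Klrb1a, against 71.5% with no receptor. Cd247, for the CD3ζ chain, was in 33.8% with Klra1 to 55.2% with Klre1, against 74.2%. Lck, for a kinase of TCR signalling, was in 81.4% with Klrd1 and 83.9% with Klre1 but 67.6% with Klra1 and 66.97% with Klrb1a, against 73.3% with no receptor. Ncr1, which encodes the NK cell receptor NKp46, had 0 UMIs in every library. Tyrobp was in 10.3% of the receptor barcodes (1.11% of the rest), Fcer1g in 26.5% (1.92%) and Eomes in 22.6% (2.16%). The 5 NK marker genes summed to 41.4 CPM in DN4 γδ+ and to between 0.791 and 4.47 CPM in the other libraries. Outside DN4 γδ+ they did not follow the receptors, being highest in Lat-KO DN3 γδ− (4.47 CPM) and DN3a (3.93 CPM), and Klrb1c is in both sums. Barcodes holding Ncr1, Tyrobp or Fcer1g were also left out, while those with only Klrb1c or Eomes were kept. Klrd1 was then in 1.94% of DN4 γδ+ barcodes at 4000 UMIs, Klra1 in 0.275% and Klrb1a in 0.626%.

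The few receptor barcodes of DN3b γδ+ at 4000 UMIs, 26 of them, were all positive for Trdc. Ccl5 was in 5 (19.2% against 0.268% of barcodes without a receptor), and S1pr1, the receptor that guides thymic exit, in 3 (11.5% against 0.545%). Eomes was in 1 and Zbtb16 in 0. At this number of barcodes the intervals were wide, 6.56% to 39.4% for Ccl5.

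Outside the 9 genes, and among genes with at least 10% of Klrd1 barcodes positive in DN4 γδ+, those with the highest ratio of shares were Samd3 (14.4% against 0.608%), Ly6c2 (11.7% against 0.637%), Tyrobp (12.2% against 0.860%), Slamf7, a receptor of cytotoxic lymphocytes (16.0% against 1.17%), and Cd55, which encodes a complement regulator (13.3% against 1.14%). For Clec2d in DN3b γδ+ the ratios were small, with Ltb, for lymphotoxin β, first (18.95% against 13.7%), followed by Tsc22d1, Capn1, Neat1 and Pcmtd1. Of the listed genes there, Icos, for a costimulatory receptor, was in 1.73% (1.195 to 2.42) of barcodes with Clec2d and 0.760% (0.591 to 0.963) of those without, Maf in 9.13% against 7.10%, and Ifng in 3.41% against 2.30%. Egr1, a gene induced by TCR signals, was in 20.6% against 17.7%, and Cd5, for a negative regulator of those signals, in 40.2% against 39.3%. In DN4 γδ+ the barcodes with Clec2d held more S1pr1 (29.3% against 14.8%) and Eomes (5.34% against 1.74%) and less Sox13 (32.2% against 52.5%) and Blk (19.2% against 36.4%).

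Likeness of pattern over the 7 libraries was measured by the root mean square difference of log2(CPM + 1), each centred on its mean, among 7030 genes with at least 20 CPM in 1 library. Nearest to Klrd1 were 5830411N06Rik (0.36), Rasa3 (0.38), Nav2, Trpm1 and Ctss (0.44), all with their highest level in DN4 γδ+. The first, although nearest by library, was in fewer DN4 γδ+ barcodes with Klrd1 (16.0%) than without it (44.35%). The same held for Klre1 (17.2% against 43.9%). Among the nearest to Clec2d were the γ chain variable gene Tcrg-V4 (0.22), S100a11, 2310001H17Rik and Lat2 (0.55). Tcrg-V4 was at 36.2 CPM in DN4 γδ+, 31.3 in DN3a, 12.9 in DN3b γδ+, 4.87 in DN3b γδ− and 4.92 in Lat-KO DN3 γδint, the order of Clec2d but for the last pair. The 7 points share library, depth and sort, and say nothing of shared control.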

How the data were processed

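The deposited files hold raw UMI counts per gene and barcode, made by the authors with Cell Ranger (4.0.0 in the matrix headers and 5.0.1 in the submitters' processing notes) against mm10 with a reporter feature added, 1 matrix per library. From these counts CPM was computed over the thymocyte barcodes described above, with exact Poisson intervals, Clopper-Pearson intervals for shares and conditional binomial intervals for ratios (95%, scipy 1.17.1). A gene entered a comparison with at least 10 UMIs over both libraries, and a count of 0 stood at a floor of 3 UMIs per library. Barcodes with at least 10 UMIs of Cd79a, Cd79b and Ms4a1 and at most 1 CD3 UMI were taken as B cells. The doublet caller scrublet marked 8.69% of the DN3b γδ− barcodes that passed the quality limits, B cells included, and at most 4 barcodes elsewhere, so it had not worked, and leaving out the 8% highest scores was tried instead. TMM (trimmed mean) scaling used edgeR 4.0.16. Ratios and intervals were tested on simulated Poisson counts, with changes set only in genes of at least 50 UMIs over both libraries. Ratios resting on fewer UMIs, or on a count of 0, were not covered by that test. The genes and lists were chosen with earlier results of these data known. Named besides the 9 genes were list genes with at least 10 CPM in 1 library, NK markers, and the 5 genes nearest in pattern to, or met most with, Klrd1 and Clec2d, 1 of which is not reported here. Replicates, and hence tests, were lacking. Clusters were not rebuilt, and the authors' cell annotation was not used here. PCR copies were already collapsed by UMI.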

Additional observations from a re-analysis of the deposited data

Results flagged for a closer look

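Between the DN3b and DN4 stages Clec2d moved in opposite ways on the 2 paths: the log2 ratio was 1.36 on the γδ path (DN4 γδ+ over DN3b γδ+) and -0.39 on the αβ path (DN4 γδ− over DN3b γδ−). With 1 library per population the difference between the paths was not tested, and the spike-in B cells of the γδ pair moved by 1.02. In the B cells of the αβ pair Clec2d was at 122 CPM (96.2 to 153) beside DN3b γδ− and at 144 CPM (103 to 196) beside DN4 γδ−, intervals that overlap and an order opposite to that of the thymocytes.

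Receptor UMIs were also counted in the barcodes that the thymocyte limits left out: 293 UMIs in DN4 γδ+ and 10 UMIs in DN4 γδ−, and 9 UMIs in each of the DN3b libraries (γδ+ and γδ−). In DN4 γδ+ this was 32.9 CPM over 2501 barcodes, against 40.4 CPM in the thymocyte barcodes.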

How the results depend on the processing

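No paired analysis was possible because there was 1 library per group. No log2 ratio of 2-fold or more changed direction. Ratios under 2-fold of Klra1, Klrb1a and Klrb1c between Lat-KO DN3 γδint and DN3b γδ+, taken against the floor, took either sign, for Klrb1c 0.05 and, under TMM scaling, -0.69. Without thinning the ratio of Clec2d shares with against without Klra1 in DN4 γδ+ turned from 0.801 to 1.29, and with Klrk1 from 0.848 to 1.29, while the Clec2d share of Lat-KO DN3 γδ− went from above that of DN3b γδ+ (21.4% and 17.6%) to below it (33.9% and 45.9%). The number of the 9 genes at least 2-fold apart between DN3b γδ+ and DN3a was 4. It fell to 2 without barcodes holding any B cell marker UMI, and to 2 without those holding Ncr1, Tyrobp or Fcer1g. It was 1 with at least 50 UMIs required. With 50 UMIs required it fell from 6 to 1 between DN3b γδ+ and DN3b γδ−, and from 2 to 1 between Lat-KO DN3 γδint and DN3b γδ+, where leaving out barcodes with any B cell marker UMI also gave 1. A higher minimum leaves fewer genes to count; for the other settings the cause was not tested. Counting each value once per setting, 230 log2 ratios stayed within their interval and 22 moved beyond it, 95 shares stayed and 33 moved, and 202 co-detection shares stayed and 22 moved. All 16 shares moved without thinning, and 12 at 2000 UMIs. Depth limits the receptors outside DN4 γδ+: a floor of 3 UMIs stood at 0.0089 CPM in DN3b γδ− and 0.079 CPM in Lat-KO DN3 γδint.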
